A study of Mus musculus with 6 samples.

Results

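Aldehyde dehydrogenases oxidize aldehydes to carboxylic acids with NAD or NADP as the acceptor of electrons. The 10 genes described here are *Aldh3a1*, *Aldh3a2*, *Aldh3b1*, *Aldh1a1*, *Aldh1a2*, *Aldh1a3*, *Aldh1a7*, *Aldh1b1*, *Aldh2* and *Aldh7a1*. They are 10 of 37753 entries with values in an expression table of mouse mammary epithelial cells and mammary tumor cell lines. For each symbol the entry with the highest mean was taken, and none of the 10 entries is joined to another gene. The genes were selected with their measured values in these libraries known, so their differences between the groups are a description and carry no test. The largest differences were those of *Aldh3a1* and *Aldh1a1*, which were low in normal cells and high in all 3 tumor lines, and of *Aldh1a3*, which was high in normal cells and low in all 3 lines.

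The family acts on distinct aldehydes in distinct compartments. The cytosolic ALDH1A enzymes oxidize retinal to retinoic acid, the ALDH3 enzymes act on aromatic and fatty aldehydes that include products of lipid peroxidation, and ALDH2, ALDH1B1 and ALDH7A1 work largely in mitochondria. In the mammary gland, aldehyde dehydrogenase activity is widely used to enrich stem and progenitor cells, and *Aldh1a3* is a known marker of luminal progenitors.

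RNA was sequenced from 3 cultures of primary mammary epithelial cells (MEC) and from 3 tumor cell lines (ME KO), with 1 library each. MEC carried Wap-Cre (genotype WAPCre+) with no floxed JNK gene named, and each culture came from the glands of 3 to 5 virgin females of 10 to 12 weeks that were grown on collagen I. The ME KO lines 199, 233 and 336 (genotype Mapk8KO Mapk9KO Cre+) were each grown from mammary tumor tissue of a parous mouse with floxed *Mapk8* and *Mapk9*, the genes for JNK1 and JNK2. They were passaged 2 times on collagen I and then kept in standard dishes. The strain was given as C57/Bl6J in both groups, and the Wap-Cre allele was shared by them. The Wap promoter drives Cre in luminal cells during pregnancy and lactation. Genotype, tumor origin, parity, age and time in culture changed together and cannot be told apart, and each line stands for 1 tumor.

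*Mapk8* was 19.2 to 25.1 FPKM (sequenced fragments scaled for transcript length and library size) in MEC and 1.37 to 5.93 in the lines, and *Mapk9* was 21.5 to 24.4 and 3.07 to 7.62. Both were therefore lower in every library labelled as lacking them. *Epcam* and *Krt8*, the epithelial and luminal markers, were detected in all 6 libraries, at 519 to 549 and 1844 to 3406 FPKM in MEC and at 128 to 252 and 230 to 539 FPKM in the lines. The basal keratin gene *Krt5* was 201 to 435 FPKM in MEC and 608 in line 199, against 1.33 and 15.3 in lines 233 and 336. *Col1a1*, a collagen gene of mesenchymal cells, was 600 FPKM in line 199, 44.2 to 74.7 in MEC and no more than 1.08 in the other lines. *Ptprc* of leukocytes was at most 0.399, *Pecam1* of endothelium at most 6.30 and *Adipoq* of adipocytes at most 0.155 FPKM in any library. Line 199 thus stood apart from the other lines in these genes, but not in every marker of the kind, since the basal gene *Myh11* was at 0.0812 FPKM in it (22.4 to 41.8 in MEC) and the fibroblast gene *Dcn* at 0.311 FPKM (3.29 to 6.62 in MEC). In such bulk samples, fewer cells of a type and less RNA per cell cannot be told apart.

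The coding sequence around the catalytic cysteine shows the family kinship, and 9 of the 10 genes match the PROSITE pattern for that site. The lines below give 36 coding bases of the principal transcript of GENCODE M21 (GRCm38) for these genes, 5′ to 3′, and the capitals mark the codon of the catalytic cysteine.
Aldh1a1: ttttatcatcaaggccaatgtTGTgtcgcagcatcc
Aldh1a7: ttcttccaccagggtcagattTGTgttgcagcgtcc
Aldh1a2: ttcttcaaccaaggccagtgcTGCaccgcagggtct
Aldh1a3: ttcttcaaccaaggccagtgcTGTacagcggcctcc
Aldh1b1: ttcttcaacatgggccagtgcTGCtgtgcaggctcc
Aldh2: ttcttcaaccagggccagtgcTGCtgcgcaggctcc
Aldh3a1: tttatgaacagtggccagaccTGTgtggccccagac
Aldh3a2: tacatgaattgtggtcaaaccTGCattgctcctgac
Aldh3b1: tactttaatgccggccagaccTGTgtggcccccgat
The cysteine was written as TGT in 5 of the genes and as TGC in 4. It is residue 303 of ALDH1A1 and ALDH1A7, 314 of ALDH1A3, 321 of ALDH2 and ALDH1B1, and 244 of ALDH3A1, counted from the initiating methionine. The closest windows were those of the mitochondrial pair *Aldh2* and *Aldh1b1*, which differed at 3 of 36 bases. *Aldh1a1* and *Aldh1a7* differed at 11 bases here, although their whole coding sequences of 1503 bases were 91.9% identical over aligned bases, more than any other pair of the 10 (the next was *Aldh1b1* with *Aldh2*, at 71.8%).

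The 2 genes with the closest coding sequences are also neighbours, and the bases nearest their starts are alike. *Aldh1a1* lies on the forward strand of chromosome 19 (20492715 to 20643465) and *Aldh1a7* on the reverse strand of the same chromosome (20692953 to 20727562), with a gap of 49.5 kb. RefSeq promoter entries (GRCm38.p6) were found for 6 of the 10 genes. The bases from 250 to 11 before the start are printed for this pair, at chr19:20601718-20601957 (forward) for *Aldh1a1* and chr19:20727567-20727806 (reverse) for *Aldh1a7*, with each CCAAT in capitals. For *Aldh1a1* this is the start used by its principal transcript.
Aldh1a1: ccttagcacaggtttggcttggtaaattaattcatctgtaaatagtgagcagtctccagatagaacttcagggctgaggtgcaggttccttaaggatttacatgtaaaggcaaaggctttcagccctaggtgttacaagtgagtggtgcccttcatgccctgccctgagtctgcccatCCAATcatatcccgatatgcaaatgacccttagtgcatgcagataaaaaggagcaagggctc
Aldh1a7: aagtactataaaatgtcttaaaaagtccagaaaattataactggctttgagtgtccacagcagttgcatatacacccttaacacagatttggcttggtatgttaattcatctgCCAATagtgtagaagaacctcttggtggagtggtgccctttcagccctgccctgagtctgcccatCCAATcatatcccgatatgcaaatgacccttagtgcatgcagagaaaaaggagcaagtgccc
Of the 100 bases nearest the start, 94 were the same in both genes, with an identical run of 65 bases. Over all 240 printed bases, compared position by position without gaps, 119 were the same. This count misses stretches that are alike but lie at different distances from the 2 starts. Such a stretch can be seen at the 5′ end of the *Aldh1a1* window and further inside that of *Aldh1a7*. The count thus does not show that the likeness is confined to the bases near the start. CCAAT was searched on both strands and was present in 33% of all 32851 promoter windows of this length. The AP-1 motif TGANTCA, the site bound by JUN and FOS proteins, was present in 6.58% of them and in neither of these windows. It occurred once in the window of another start of *Aldh1a1* (chr19:20492333-20492572) and in none of the windows of *Aldh3a2*, *Aldh3b1*, *Aldh1a2* and *Aldh1b1*. GCGTG, the core of the site bound by the aryl hydrocarbon receptor (AHR), was present in 27.1% of all windows, once each in those of *Aldh3a2* and *Aldh1a2*, and in neither of the printed ones.

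Among the retinal dehydrogenases, the isoform with the most RNA changed from *Aldh1a3* in MEC to *Aldh1a1* in the lines. *Aldh1a3* encodes an enzyme with high activity on all-trans-retinal and lies on chromosome 7 (66390890 to 66427517, reverse strand). It was measured at 137, 224 and 72.8 FPKM in MEC 1, 2 and 3, and at 4.92, 0.309 and 1.13 FPKM in lines 199, 233 and 336. The lowest MEC library was 14.8-fold above the highest line, so the groups did not overlap. The means were 145 ± 76.0 FPKM (SD, n = 3) and 2.12 ± 2.46 FPKM (SD, n = 3), which is 68.3-fold lower in ME KO, and the log2 difference on log2(FPKM + 1) was -5.70 ± 0.64 (SE).

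*Aldh1a1*, whose enzyme also makes retinoic acid, went the other way. It was at 0.185, 0.493 and 0.121 FPKM in MEC and at 8.17, 14.4 and 50.6 FPKM in lines 199, 233 and 336. Every line lay at least 16.6-fold above the highest MEC library, and line 336 was the highest. The ratio of the means was 91.6-fold, from 0.266 ± 0.199 to 24.4 ± 22.9 FPKM (SD, n = 3 each), and the log2 difference was 3.95 ± 0.61 (SE). The *Aldh1a3* level was 742, 455 and 604 times that of *Aldh1a1* in MEC, and in the lines it was 0.602, 0.0215 and 0.0224 times that of *Aldh1a1*.

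*Aldh1a7* and *Aldh1a2* contributed little RNA in any library. *Aldh1a7*, a rodent relative of *Aldh1a1* with weak activity on retinal, was listed at 0 in MEC 1 and 3, at 0.0554 FPKM in MEC 2, and at 0.752, 0.202 and 1.08 FPKM in lines 199, 233 and 336. The lines were above MEC, in the direction of *Aldh1a1*, at 9.20%, 1.40% and 2.12% of the *Aldh1a1* level. Windows of 40 bases that occur unchanged in a transcript of the other gene made up 10.2% of the *Aldh1a1* transcript and 10.1% of that of *Aldh1a7*, while no window of 150 bases, the read length, was shared. Reads from one of the genes could thus in part be assigned to the other, and the *Aldh1a7* value is uncertain to that extent. *Aldh1a2*, the main retinal dehydrogenase of the early embryo, was at 0.158, 0.298 and 0 FPKM in MEC and at 0.166, 0.0314 and 0.0197 FPKM in the lines, with overlapping groups. Summed over these 4 genes, the MEC libraries averaged 145 ± 76.4 and the lines 27.3 ± 22.2 (FPKM, SD, n = 3 each), or 41.6% and 5.26% of the FPKM of all 10 genes.

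**Figure D1:**
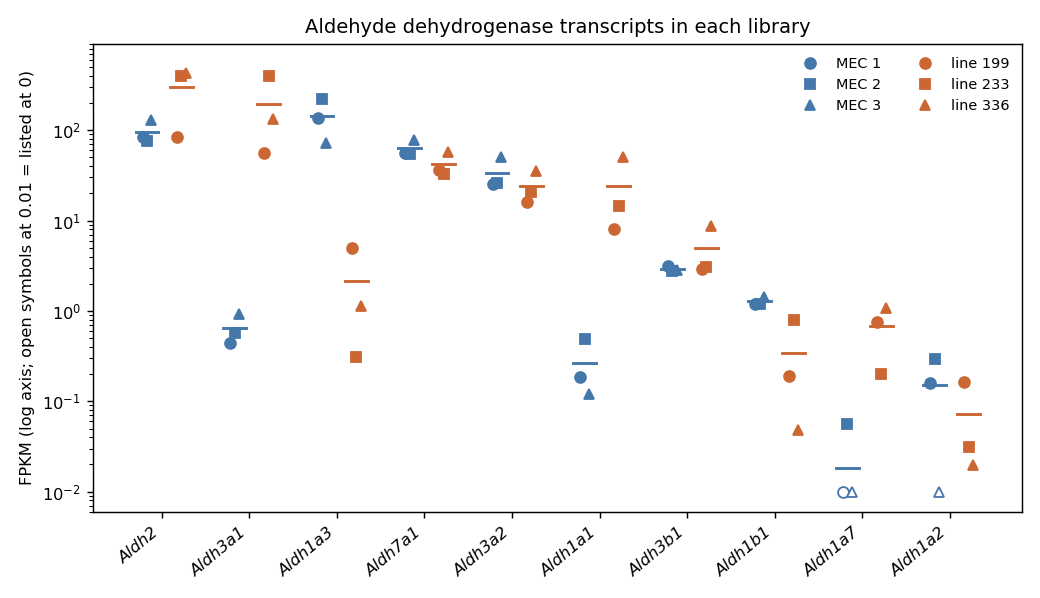
FPKM of the 10 aldehyde dehydrogenases in each library on a log axis, ordered by the mean over the 6 libraries, with MEC in blue, ME KO lines in orange, bars at the group means and open symbols for values listed at 0. The groups lie far apart for *Aldh3a1*, *Aldh1a1* and *Aldh1a3* and overlap for *Aldh2*, *Aldh7a1*, *Aldh3a2*, *Aldh3b1* and *Aldh1a2*.

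Of the 3 ALDH3 genes among the 10, *Aldh3a1* had groups that did not overlap, and *Aldh3a2* and *Aldh3b1* had groups that did. *Aldh3a1* encodes an enzyme for aromatic and medium-chain aldehydes that is abundant in the cornea and is induced through AHR in liver. It was at 0.447, 0.567 and 0.934 FPKM in MEC and at 56.1, 402 and 133 FPKM in lines 199, 233 and 336. The lowest line was 60.0-fold above the highest MEC library. By level it ranked 171 among the 17343 entries above 0 in line 233, while its best rank in MEC was 12368. The MEC mean was 0.649 ± 0.254 and that of the lines 197 ± 182 (FPKM, SD, n = 3 each), a ratio of 304-fold, and the log2 difference was 6.47 ± 0.67 (SE). The SD over the lines was nearly as large as their mean, so the size of the difference is less certain than its direction, which all 3 lines shared.

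The gene beside *Aldh3a1* showed no such difference. *Aldh3a1* (chromosome 11, 61207537 to 61218421, forward strand) and *Aldh3a2* (61223417 to 61267464, reverse strand) end 5.0 kb apart, and *Aldh3a2* encodes the microsomal enzyme for long-chain fatty aldehydes. *Aldh3a2* was at 25.6, 26.0 and 50.1 FPKM in MEC and at 15.9, 20.9 and 35.0 FPKM in the lines. MEC 3 and line 336 were the highest of their groups, the groups overlapped, and the log2 difference was -0.49 ± 0.37 (SE). The *Aldh3a1* level was between 1.75% and 2.18% of the *Aldh3a2* level in MEC, and 3.53, 19.2 and 3.80 times it in lines 199, 233 and 336. The coding sequences of the pair were 69.3% identical over aligned bases, and neither transcript shared a window of 40 bases with another gene.

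*Aldh3b1*, which encodes a membrane-bound enzyme for lipid-derived aldehydes, was at 3.16, 2.73 and 2.86 FPKM in MEC and at 2.93, 3.09 and 8.77 FPKM in the lines. Lines 199 and 233 lay within the MEC range and line 336 was above it, so the log2 difference of 0.46 ± 0.38 (SE) came from 1 line. Without line 336 it was 0.03. Of the 40-base windows of its transcript, 12.7% also occur in transcripts of *Aldh3b2* or *Aldh3b3*, while none of its 150-base windows does, and its value is uncertain to that extent.

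Of the mitochondrial enzymes, *Aldh2* separated the lines from each other. *Aldh2* encodes the main enzyme that clears acetaldehyde and also acts on lipid peroxidation products. Its level was 83.1, 76.1 and 131 FPKM in MEC, 84.2 FPKM in line 199, and 394 and 427 FPKM in lines 233 and 336. Line 199 was inside the MEC range while the other lines were above it, and the groups overlapped. Against the MEC mean, the log2 ratios on log2(FPKM + 1) were -0.16, 2.06 and 2.17 for lines 199, 233 and 336, and the group difference was 1.36 ± 0.64 (SE). It was 2.12 without line 199. That line was also the one with *Krt5* and *Col1a1* at or above the MEC level, and the part of these genes' cells in its *Aldh2* level was not tested. The *Aldh2* transcript overlaps exons of the opposite-strand gene *Gm42879* over 130 bases, 3.36% of its length.

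*Aldh7a1* encodes antiquitin, the dehydrogenase of a semialdehyde in lysine breakdown. It was at 56.5, 54.0 and 78.0 FPKM in MEC and at 36.5, 33.0 and 57.1 FPKM in the lines. The groups overlapped at line 336, and the log2 difference was -0.58 ± 0.26 (SE). *Aldh1b1*, a mitochondrial relative of *Aldh2* that accepts acetaldehyde and retinal, was at 1.20, 1.20 and 1.41 FPKM in MEC and at 0.191, 0.800 and 0.0486 FPKM in lines 199, 233 and 336. All the lines were below MEC, at levels where FPKM values are least precise, and line 233 came nearest to it.

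The filter for testing, a mean of at least 1 FPKM over the 6 libraries, was passed by 7 of the 10 genes, and *Aldh1a2*, *Aldh1a7* and *Aldh1b1* were below it. *Aldh1a1* and *Aldh3a1* passed it only through the lines. In the limma fit of ME KO against MEC, with a call at an adjusted p under 0.05 and a log2 difference beyond 0.75, 2 of the 7 were called higher in ME KO (*Aldh3a1* and *Aldh1a1*) and 1 lower (*Aldh1a3*). Over all 12461 tested entries, 2.64% were called higher and 7.26% lower. The same 3 genes had groups that did not overlap, as did 18.5% (ME KO higher) and 18.7% (ME KO lower) of all tested entries. Since the genes were chosen on this contrast, nothing is read from these counts.

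**Figure D2:**
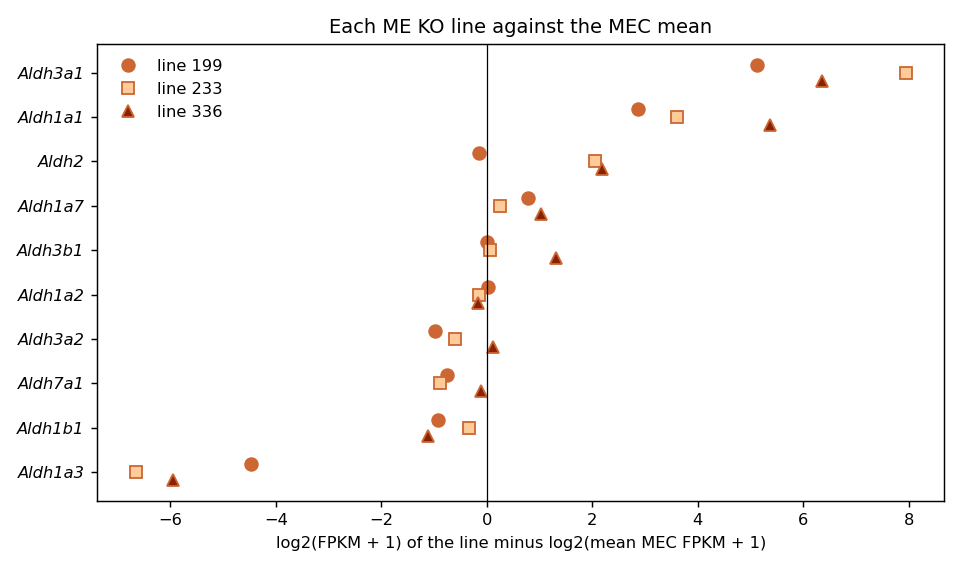
Log2 ratio of each ME KO line to the MEC mean on log2(FPKM + 1) for the 10 genes, with 1 symbol per line and the MEC mean at 0. All 3 lines lie to the right for *Aldh3a1* (5.12 to 7.94) and *Aldh1a1* (2.87 to 5.36) and to the left for *Aldh1a3* (-6.66 to -4.48), while for *Aldh2* line 199 (-0.16) lies apart from the others.

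The lines did not share 1 order in these genes. Line 233 had the highest *Aldh3a1* and the lowest *Aldh1a3*, line 336 had the highest *Aldh1a1*, *Aldh1a7*, *Aldh2*, *Aldh3a2*, *Aldh3b1* and *Aldh7a1*, and line 199 had the lowest *Aldh3a1*, *Aldh1a1* and *Aldh2* and the highest *Aldh1a3* of the lines. Thus the line with the smallest gains of *Aldh3a1* and *Aldh1a1* also kept the most *Aldh1a3*, at 3.40% of the MEC mean, against 0.213% and 0.782% in lines 233 and 336.

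The make-up of the summed transcripts of the 10 genes differed between the groups. The sum was 308, 386 and 337 FPKM in MEC and 210, 869 and 714 FPKM in lines 199, 233 and 336, so line 199 was below MEC and the others above. *Aldh1a3* made up 44.6%, 58.1% and 21.6% of the sum in MEC and 2.34%, 0.0355% and 0.159% in the lines. *Aldh3a1* made up at most 0.277% in MEC and 26.7%, 46.3% and 18.6% in the lines. *Aldh2* was a large part of both, at 27.0%, 19.7% and 38.8% in MEC and at 40.1%, 45.4% and 59.8% in the lines.

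**Figure D3:**
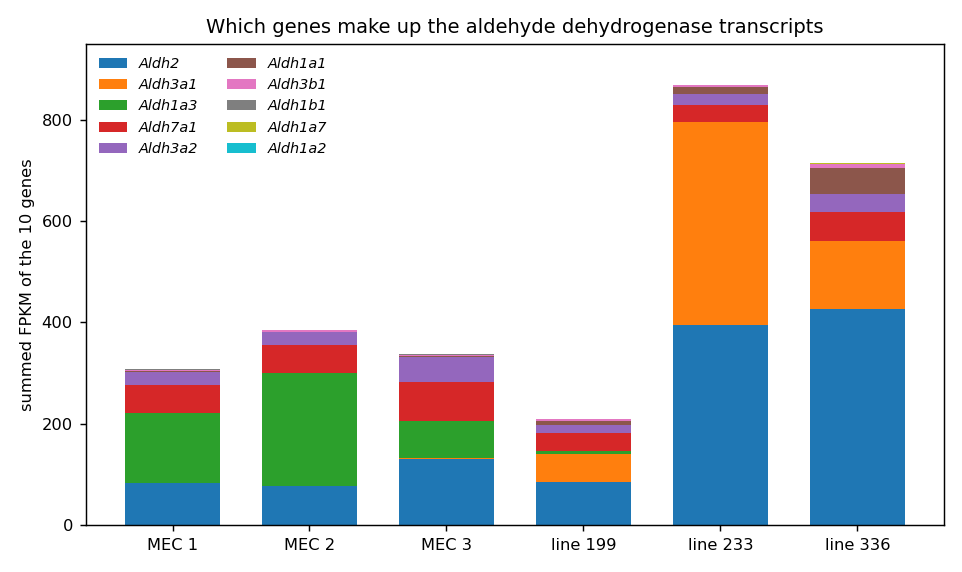
Summed FPKM of the 10 genes in each library, stacked by gene, with the axis from 0. *Aldh1a3* (green) is visible in the MEC libraries and almost absent from the lines, *Aldh3a1* (orange) the reverse, and the sum of line 199 (210) is below those of lines 233 (869) and 336 (714).

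By mean level, the order in MEC was *Aldh1a3*, *Aldh2*, *Aldh7a1*, *Aldh3a2*, *Aldh3b1*, *Aldh1b1*, *Aldh3a1*, *Aldh1a1*, *Aldh1a2* and *Aldh1a7*. Within single libraries, MEC 1 and MEC 2 had this same order. In MEC 3, *Aldh2* and *Aldh7a1* were above *Aldh1a3*, and the others kept their order, with *Aldh1a2* and *Aldh1a7* both listed at 0. In ME KO the order was *Aldh2*, *Aldh3a1*, *Aldh7a1*, *Aldh1a1*, *Aldh3a2*, *Aldh3b1*, *Aldh1a3*, *Aldh1a7*, *Aldh1b1* and *Aldh1a2*. Within each line, *Aldh2* and *Aldh3a1* were above *Aldh7a1*, which came next, and *Aldh1a2* was the lowest. The other places differed between the lines.

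Because *Aldh1a3* marks luminal progenitors, the other markers of these cells were set beside it. *Elf5*, a transcription factor of alveolar progenitors, was at 31.5 to 44.3 FPKM in MEC and at most 0.461 in the lines, and *Kit* was at 9.90 to 14.9 and at most 0.129. All 3 of 3 markers (*Elf5*, *Kit* and *Cd14*) were called lower in ME KO, beside 7.26% of all tested entries. Their summed level was 119 to 160 FPKM in MEC and 6.53, 8.50 and 37.9 FPKM in lines 199, 233 and 336. *Kit* was listed at 0 in lines 199 and 233, and *Elf5* in line 233. Of the 5 luminal markers, 4 were called lower, beside the same 7.26%, and *Krt18* was not called. The luminal sum was 5308 to 8869 FPKM in MEC and 789 to 1962 in the lines. The part of these shifts in the *Aldh1a3* level was not tested. The 5 basal markers summed to 1256 to 2237 FPKM in MEC and to 1865, 9.90 and 45.0 FPKM in lines 199, 233 and 336, and the 6 fibroblast markers to 95.7 to 179 and to 1081, 2.38 and 1.82 FPKM. The 5 leukocyte markers summed to 20.2 to 39.8 FPKM in MEC, mostly from *Lyz2*, and to 0.795, 2.75 and 23.5 FPKM in the lines, the last of these nearly all from *Cd68*. The 4 endothelial markers were at most 13.9 FPKM in MEC and 0.430 in the lines, and the 4 adipocyte markers at most 11.7 FPKM, from *Fabp4*. In line 199 the fibroblast sum came from the collagen genes *Col1a1*, *Col1a2* and *Col3a1*, while *Dcn* and *Lum* (0.0264 FPKM, against 0.507 to 1.28 in MEC) were below MEC. *Aldh3a1* and *Aldh1a1* were above MEC in all 3 lines, and the luminal and luminal progenitor sums were below MEC in all 3. The basal and fibroblast sums differed between the lines. The part of any of these sums in the *Aldh3a1* and *Aldh1a1* levels was not tested.

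Of 10 further aldehyde dehydrogenase genes in the table, 8 were tested, none was called higher and 2 were called lower (limma), beside 2.64% and 7.26% of all tested entries, with a median log2 difference of -0.36 beside 0.01 over all tested entries. *Aldh1l1*, which encodes a folate enzyme that oxidizes 10-formyltetrahydrofolate, was at 2.46 to 4.10 FPKM in MEC and 0.0312 to 0.576 FPKM in the lines. Its log2 difference was -1.83 ± 0.28 (SE), with a limma adjusted p of 0.0150, and it passed the filter only through MEC. *Aldh4a1*, which oxidizes an intermediate of proline breakdown and is joined in the table to 3 other genes (*Gm21969*, *Iffo2* and *Tas1r2*), fell by 1.16 on the log2 scale (limma adjusted p = 0.0222), from 7.80 to 9.37 FPKM in MEC to 2.49 to 4.28 FPKM in the lines. The highest of these genes was *Aldh18a1*, a proline synthesis enzyme, at 22.1 to 36.1 FPKM in MEC and 19.1 to 80.4 FPKM in the lines, which was not called. *Aldh3b2* was below the filter and not tested, with 0 to 0.0480 FPKM in MEC and 0.363 to 0.688 FPKM in the lines, so that all 3 lines were above MEC at low levels.

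Around the ALDH1A step, genes that make, carry or degrade retinoids gave 1 call. Of 13 tested entries among 23 in the table, none was called higher and *Dhrs4* was called lower, beside 2.64% and 7.26% of all tested entries, with a median log2 difference of -0.36. *Dhrs4*, a reductase that acts on retinal, was at 17.6 to 18.8 FPKM in MEC and at 4.78 to 9.46 FPKM in the lines (log2 difference -1.32 ± 0.24 SE, limma adjusted p = 0.0222).

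Of the other enzymes for aldehydes and alcohols, 18 of 35 entries in the table were tested, and 2 were called lower and none higher, beside 7.26% and 2.64% of all tested entries, with a median log2 difference of -0.17. *Ptgr1*, a reductase of prostaglandins and of unsaturated aldehydes, was at 8.93 to 14.3 FPKM in MEC and 2.39 to 4.59 FPKM in the lines (log2 difference -1.48 ± 0.27 SE, limma adjusted p = 0.0237). *Akr7a5*, an aldehyde reductase, was at 15.8 to 24.3 FPKM and 6.46 to 9.08 FPKM (log2 difference -1.14 ± 0.22 SE, limma adjusted p = 0.0281). The highest was *Akr1a1*, a general aldehyde reductase, at 370 to 382 FPKM in MEC and at 139, 276 and 418 FPKM in the lines, which was not called.

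*Aldh3a1* belongs to the known targets of AHR, so the other genes of that response were examined. Of 8 tested entries among 12, none was called in either direction by limma, while 4 had an unadjusted p under 0.05, as did 3509 of all 12461 tested entries, and the median log2 difference was 0.75. In 4 of the 8 the groups did not overlap with ME KO higher, and in 0 with ME KO lower, beside 18.5% and 18.7% of all tested entries. *Cyp1a1*, the target most used as a readout of AHR, picked for mention with its values in view, was at most 0.299 FPKM in MEC and 0.512 FPKM in the lines. It was below the filter and not tested, and it does not stand for the other genes of the list. The calls of this list depended on single lines, with 1 gene called higher when line 233 was left out and 2 when line 336 was.

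Of the enzymes that release aldehydes, 22 of 33 entries were tested. *Loxl4* was called higher and *Chdh* and *Aldoc* lower, which is 1 and 2 of 22 beside 2.64% and 7.26% of all tested entries, with a median log2 difference of -0.19. *Loxl4*, a lysyl oxidase-like enzyme of the extracellular matrix, was at 1.91 to 2.84 FPKM in MEC and at 10.7, 46.9 and 15.7 FPKM in lines 199, 233 and 336 (log2 difference 2.61 ± 0.51 SE, limma adjusted p = 0.0279). *Chdh*, which turns choline to betaine aldehyde, was at 1.83 to 5.18 FPKM in MEC and at most 0.273 FPKM in the lines (log2 difference -1.80 ± 0.36 SE, limma adjusted p = 0.0304). It passed the filter only through MEC. *Aldoc*, a fructose-bisphosphate aldolase, fell by 2.05 on the log2 scale (limma adjusted p = 0.0386), from 15.6 to 33.6 FPKM in MEC to 1.91 to 6.54 FPKM in the lines. Its relative *Aldoa* was the highest of the list, at 397 to 625 FPKM and 525 to 740 FPKM, and was not called. For all 4 of these lists with a call, leaving out any 1 of the MEC libraries left no gene called. Of the alternatives that tested them, the calls of *Loxl4*, *Chdh* and *Aldoc* held in 7 of 12, 5 of 10 and 6 of 12.

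The tested entries whose pattern over the 6 libraries was most like that of *Aldh3a1*, by Pearson r on log2(FPKM + 1), were *Irak1bp1* (r = 0.9989), *Prl2c2* (0.9972), *Psca* (0.9972), *Upk3bl* (0.9963) and *Ptcd1* (0.9934). The 6 libraries fall into their 2 groups, so such an r holds mostly the difference between groups and is given as a description. All 5 were lowest in MEC, and among the lines they were lowest in line 199 and highest in line 233, as was *Aldh3a1*. The 5 entries were chosen by r over the same libraries, so this shared order is not a separate finding. Their ranges differed widely, since *Prl2c2*, a prolactin-family gene with near-identical copies whose reads may be split, reached 1247 FPKM in line 233 from at most 0.272 FPKM in MEC, while *Ptcd1* was at 7.69 to 8.06 FPKM in MEC and 9.84 to 10.8 FPKM in the lines. *Psca*, a surface antigen of epithelia, was at most 0.0709 FPKM in MEC and at 4.85, 11.2 and 7.38 FPKM in lines 199, 233 and 336.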

How the data were processed

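RNA from 3 MEC and 3 ME KO cultures was prepared as TruSeq libraries and sequenced by the authors with paired reads of 150 bp. They trimmed the reads, aligned them to GRCm38 (mm10) with Bowtie2 and TopHat2 2.0.14, and quantified genes with Cufflinks 2.2.1, per the labels and the methods. The deposited table gives an FPKM value for each of 37755 entries in each library. Whether strand was used in counting is not given in the sources used here, and 2 entries without values were dropped. FPKM hold no read numbers, so depth is unknown and no interval or floor was computed (summed FPKM were 557991 to 638365 per library).

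Groups came from the sample titles, and the labels name no batch. ME KO was compared with MEC in R 4.3.3 with limma 3.58.1 on log2(FPKM + 1), with a mean-variance trend, over 12461 entries with a mean FPKM of at least 1 and Benjamini-Hochberg adjustment. The script was tested on simulated data. A call needed an adjusted p under 0.05 and a log2 difference beyond 0.75, the thresholds of the study's methods. Each library is a separate preparation or line, so p-values measure the spread between these.

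The genes described and all gene lists were chosen with earlier results of these data known. Named are all 10 genes, the called genes of each related list (the 6 largest where there were more) and its highest gene, the 5 entries most like *Aldh3a1*, *Mapk8*, *Mapk9* and 7 cell type markers. Some genes that this rule names are not reported here. Other names were chosen after values were seen. Alternatives were a pseudocount of 0.1, no filter, a filter at 5 FPKM, upper-quartile scaling, quantile normalization, no trend, adjusted p alone, the log2 ratio of means and leaving out each library. Positions, exons and transcripts came from GENCODE M21 and promoters from RefSeq.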

Additional observations from a re-analysis of the deposited data

How the results depend on the processing

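The log2 differences of *Aldh3a1*, *Aldh1a1* and *Aldh1a3* kept their sign in every alternative run, with ranges of 5.74 to 8.25, 3.24 to 6.52 and -6.59 to -5.22. Those of low genes grew with a smaller pseudocount. The number of called entries, 1234 in the comparison as described, was 738 with a mean FPKM of at least 5 and 259 to 1966 when 1 library was left out. It was 259, 301 and 477 without MEC 1, 2 and 3, which also leaves fewer samples, and 1966 without line 199. Calls in the other aldehyde dehydrogenase genes were 1 at a mean FPKM of at least 5 and 0 to 3 on leaving out a library, the 3 being without line 199. Retinoid genes called were 2 with upper-quartile scaling and 2 with quantile normalization, and 0 to 3 on leaving out a library. The range on leaving out a library was 0 to 4 for other carbonyl and alcohol enzymes, and 0 to 8 for aldehyde-producing enzymes, the 8 being without line 199. AHR genes called were 1 with a pseudocount of 0.1, 1 with quantile normalization and 0 to 2 on leaving out a library. For these related lists the cause was not tested. Calls in a design of 3 against 3 thus depend on single libraries. No paired analysis was possible because the groups share no replicate numbers.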

Other observations

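The tested genes within 250 kb of the 10 aldehyde dehydrogenase genes were looked at after the data were seen. Of 40 such entries that are not among the 10 genes, 1 was called higher and none lower, beside 2.64% and 7.26% of all tested entries. It was *Chka*, a choline kinase gene near *Aldh3b1*, with a log2 difference of 0.91 and a limma adjusted p of 0.0412. The median log2 difference of the 40 entries was 0.24, beside 0.01 over all tested entries. Beside *Aldh1a3*, *Lrrk1* was at 21.6 to 22.3 FPKM in MEC and at 23.8, 35.4 and 25.3 FPKM in lines 199, 233 and 336, a log2 difference of 0.32 ± 0.18 (SE). Beside *Aldh3a1* and *Aldh3a2*, *Usp22* was at 37.4 to 51.8 FPKM in MEC and 32.8 to 40.4 FPKM in the lines, with a log2 difference of -0.20 ± 0.18 (SE). *Anxa1*, the only other tested gene near *Aldh1a1*, was at 1728 to 2215 FPKM in MEC and at 1785, 284 and 406 FPKM in lines 199, 233 and 336. Its log2 difference was -1.70 ± 0.66 (SE) and it was not called (limma adjusted p = 0.155).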
